A study of Arabidopsis thaliana with 6 samples.

Results

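The 10 genes described here encode proteins with a TIR domain, the Toll/interleukin-1 receptor fold used by one large class of plant immune receptors. They are AT1G57630, AT2G20142, AT2G32140, AT5G41740, AT5G41750, AT4G14370, AT1G66090, AT1G72910, AT1G72920 and AT1G72940, and they were picked by gene ID from the 27655 genes of the deposited count table because their counts differed between submerged and air seedlings. Their differences in this contrast are therefore given as a description, with no test. All samples were whole seedlings of wild-type Arabidopsis thaliana, ecotype Col-0, at 14 days after germination on MS-agar plates in long days. One group stayed in air for 1 h (Air, 3 libraries) and the other was put under distilled water for 1 h (Sub, 3 libraries), so shoot and root RNA are mixed and there is 1 time point. In such bulk RNA, fewer cells of a type and less RNA per cell cannot be told apart.

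Plant TIR domains are enzymes that cleave NAD+. The small molecules they make bind the lipase-like protein EDS1 in complex with its partner PAD4 or SAG101, and these complexes engage helper NLRs of the ADR1 and NRG1 families, which act as calcium channels at the plasma membrane. A full TIR-NBS-LRR receptor (TNL) joins the TIR domain to a nucleotide-binding domain and a leucine-rich repeat region that recognises pathogen effectors. Shorter forms lack the repeats (TIR-NBS) or carry little beyond the TIR domain.

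By their annotation AT5G41740, AT5G41750 and AT4G14370 are TNLs, with predicted proteins of 1114, 1068 and 1051 residues, and AT1G66090 is a TIR-NBS protein of 429 residues. The proteins of the remaining 6 have 172 to 380 residues, and the P-loop pattern of nucleotide-binding domains was found in the TNLs and AT1G66090 and in none of these 6. The label held for 9 genes by their product names. AT2G32140 is annotated as a transmembrane receptor, and its protein matched 120 of the 132 TIR-annotated proteins in a blastp search with an e-value limit of 1e-05, against 122 to 130 for the other 9. The genes lie on chromosomes 1, 2, 4 and 5. AT5G41740 and AT5G41750 are neighbours on the plus strand, and their proteins were identical at 78.7% of 1039 aligned residues. AT1G72910, AT1G72920 and AT1G72940 belong to a tandem cluster named here after AT1G72900. Within it the proteins of AT1G72920 and AT1G72940 were identical at 86.9% of 268 residues, and AT1G72910 and AT1G72940 at 68.0% of 363. AT1G66090 and AT4G14370, on different chromosomes, were identical at 64.7% of 414 residues.

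The 250 bases before the annotated start of transcription are printed for 5 of the genes, to show the neighbouring TNL pair, the TIR-NBS gene and a pair from the cluster. They were read from RefSeq's TAIR10.1 assembly at its own gene starts, 5′ to 3′. Capitals mark TTGAC, the core of the W-box bound by WRKY factors, and CGCG, the core bound by CAMTA factors, each on either strand.
AT5G41740, chr5:16688376-16688625, plus strand: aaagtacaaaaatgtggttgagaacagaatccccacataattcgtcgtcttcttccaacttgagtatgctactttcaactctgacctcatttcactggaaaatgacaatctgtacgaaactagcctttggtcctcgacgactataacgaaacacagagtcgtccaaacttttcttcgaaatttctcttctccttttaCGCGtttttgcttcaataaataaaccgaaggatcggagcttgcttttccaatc
AT5G41750, chr5:16693582-16693831, plus strand: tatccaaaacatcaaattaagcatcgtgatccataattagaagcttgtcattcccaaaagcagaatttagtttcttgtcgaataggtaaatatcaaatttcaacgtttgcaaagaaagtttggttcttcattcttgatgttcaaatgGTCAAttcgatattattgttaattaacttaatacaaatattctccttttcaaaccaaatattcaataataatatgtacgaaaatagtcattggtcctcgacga
AT1G66090, chr1:24601783-24602032, plus strand: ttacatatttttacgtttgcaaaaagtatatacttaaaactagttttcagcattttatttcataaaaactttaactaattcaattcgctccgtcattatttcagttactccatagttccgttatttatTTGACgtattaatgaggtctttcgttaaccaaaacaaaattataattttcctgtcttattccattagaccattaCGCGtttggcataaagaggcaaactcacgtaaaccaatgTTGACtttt
AT1G72910, chr1:27435056-27435305, plus strand: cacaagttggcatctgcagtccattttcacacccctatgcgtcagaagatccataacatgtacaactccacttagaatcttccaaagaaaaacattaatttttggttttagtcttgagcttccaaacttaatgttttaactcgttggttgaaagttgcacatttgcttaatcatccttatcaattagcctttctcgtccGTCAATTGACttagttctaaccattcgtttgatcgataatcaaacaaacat
AT1G72940, chr1:27441731-27441980, plus strand: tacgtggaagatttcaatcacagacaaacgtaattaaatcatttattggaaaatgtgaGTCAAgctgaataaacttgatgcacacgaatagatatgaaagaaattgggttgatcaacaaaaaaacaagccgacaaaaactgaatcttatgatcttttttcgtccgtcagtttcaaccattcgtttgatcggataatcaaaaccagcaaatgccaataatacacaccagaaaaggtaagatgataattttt

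AT5G41740 and AT1G66090 each held the 10-base run ttacgcgttt, which contains ACGCGT. AT1G72910 and AT1G72940 shared the 17-base run aaccattcgtttgatcg, and the neighbours AT5G41740 and AT5G41750 shared ttggtcctcgacga. TTGAC was in the windows of 7 of the 10 genes, 44.9% of 27443 windows of the same length before all genes and 54.5% of the 132 before TIR-annotated genes. Its extended form TTGACT was in 5 of the 10, against 19.1% of all windows and 36.4% of TIR windows. ACGCGT, which contains CGCG, was in 2 of the 10, against 1.7% of all windows and 7.6% of TIR windows. These counts include AT4G14370, whose annotated start is partial, and AT1G72920, whose window overlaps another gene. Without this pair TTGAC was in 6 of 8 windows, TTGACT in 4 and ACGCGT in 2. A match describes letters in these windows and does not show that a factor binds there.

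The libraries held 20041244 to 29673924 counts. Of 19495 genes tested with edgeR's quasi-likelihood test, 28.8% were higher and 26.1% lower under water at a Benjamini-Hochberg adjusted p under 0.05, and upper quartile scaling in place of TMM turned the 5624 higher and 5094 lower genes into 4465 and 6813, with a median of -0.12 on the log2 scale. Every Sub library lay above every Air library in 32.2% of the genes. Of 10 shoot marker genes 8 fell, with summed levels of 59790 to 62980 CPM (counts scaled to a common library size with TMM factors) in Air and 42450 to 48340 in Sub. Of 12 root markers 1 rose and 1 fell, with a median log2 fold change of 0.03. Their summed levels were 1664 to 1970 CPM in Air and 872.5 to 1263 in Sub, and no marker of either list was at 0. The root marker that fell was BGLU23, by 0.82 on the log2 scale. The root marker that rose was NRT2.1, and its call did not hold in 7 of 13 alternatives. The part of these shifts in the results was not tested.

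The full-length receptors were scarce in air and far more abundant under water. AT5G41740 stood at 4.99, 3.71 and 3.83 CPM in Air replicates 1, 2 and 3 and at 62.4, 73.1 and 77.7 CPM in the Sub replicates. All 3 Sub libraries lay far above all 3 Air libraries, with a log2 fold change of 4.07 ± 0.12 (SE, n = 3 per group). Its neighbour AT5G41750 was at 0.460, 0.376 and 1.18 CPM in Air and at 32.8, 28.4 and 39.0 CPM in Sub. Air replicate 3 was the highest of the Air libraries, and the log2 fold change of 5.66 ± 0.24 became 6.28 without it. The neighbours shared 5.55% of the 75-base stretches of AT5G41750 and 6.96% of those of AT5G41740, so a small part of their reads may be split between them. AT4G14370 had 0.767, 1.55 and 0.786 CPM in Air and 20.6, 19.6 and 21.6 CPM in Sub. Its Sub libraries were the most alike of all 10 genes, with a coefficient of variation of 4.89%, and the log2 fold change was 4.32 ± 0.20.

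AT1G66090, the TIR-NBS gene, showed 0.691, 1.13 and 1.28 CPM in Air against 22.0, 24.2 and 28.4 CPM in Sub. The groups did not overlap, and the log2 fold change was 4.61 ± 0.19. The ratio of summed counts was 24.3, with an exact binomial 95% interval of 17.3 to 35.3 that covers counting error alone.

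Near or at absence in air were 3 short TIR genes outside the cluster. AT1G57630 had 0 counts in each Air library, which allows up to 0.0887 CPM over the group, and 83, 54 and 83 counts in the Sub libraries, or 2.80, 2.45 and 4.28 CPM. Against a floor of 6 counts (3 read pairs) summed over the Air group, it was at least 34.9-fold higher in Sub, and its 3 Sub values were the most spread of the 10 genes, with a coefficient of variation of 30.6%. AT2G32140 had 0, 2 and 2 counts in Air and 204, 167 and 155 in Sub. Its Sub libraries lay within 6.88 to 8.0 CPM, and the ratio of summed levels was 125, with a counting interval of 34.3 to 1039. Its 4 counts in Air lie under the floor, so the size of this ratio is known only within that interval. AT2G20142 was at 0.230, 0 and 0.590 CPM in Air and at 12.7, 12.0 and 13.5 CPM in Sub. The Sub libraries were close to each other while the Air libraries ranged from no count to 12 counts, and the log2 fold change of 5.55 ± 0.39 was 5.0 without Air replicate 2 and 6.59 without Air replicate 3. The fitted log2 value of AT2G32140, 6.85 ± 0.41, was 6.20 without Air replicate 1 and 7.29 without Air replicate 3.

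The 3 genes of the cluster had the smallest log2 fold changes of the 10. AT1G72910 was at 0.767, 1.08 and 1.47 CPM in Air and at 11.6, 11.3 and 13.8 CPM in Sub, a log2 fold change of 3.49 ± 0.22. For AT1G72920 the values were 1.46, 1.5 and 1.43 CPM in Air and 12.9, 17.7 and 13.5 CPM in Sub, with a log2 fold change of 3.32 ± 0.18. Its Air libraries were nearly equal, and Sub replicate 2 was the highest of the Sub libraries. AT1G72940 stood at 8.29, 8.65 and 9.39 CPM in Air, higher than any of the other 9 genes, and at 31.2, 36.0 and 37.5 CPM in Sub. Its log2 fold change of 1.99 ± 0.10 was the lowest. AT1G72910 shared 11.5% of its 75-base stretches with other genes, AT1G72930 among them, and AT1G72920 and AT1G72940 shared 4.9% and 4.27% of theirs, so reads of these genes may be partly split.

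**Figure D1:**
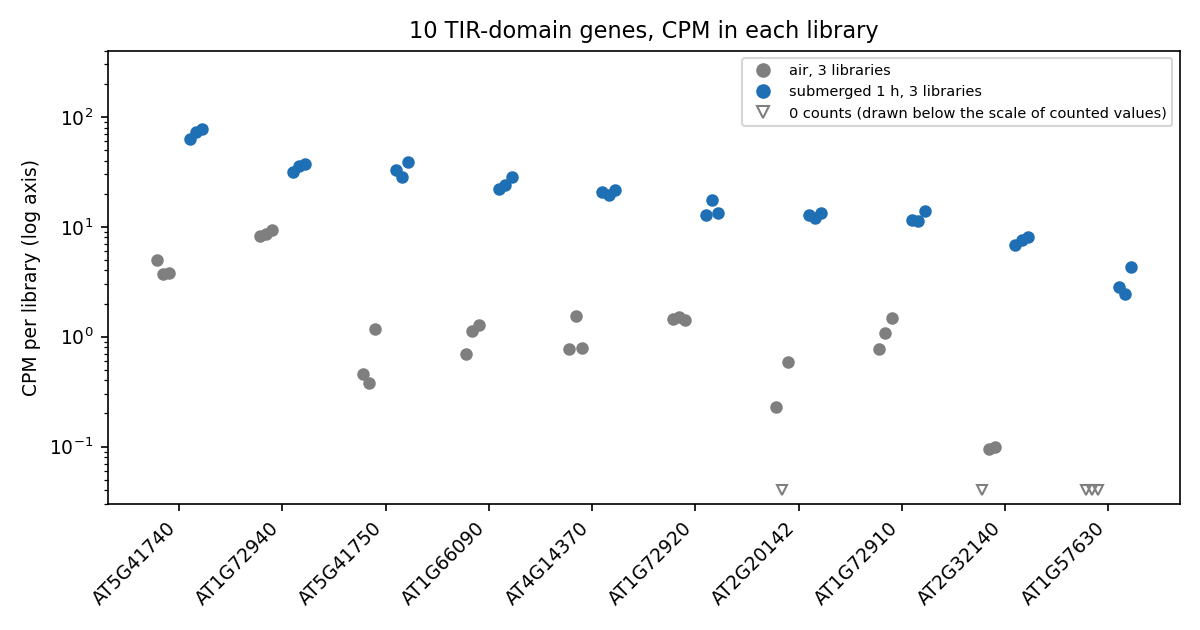
CPM of the 10 TIR-domain genes in each of 3 Air and 3 Sub libraries on a log axis, ordered by level in Sub, with triangles for libraries with 0 counts. The groups do not overlap for any gene, and AT1G57630 has 0 counts in all 3 Air libraries.

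Air replicate 3 tended to hold more of these transcripts than the other Air libraries, with a median log2 deviation of 0.32 over the 10 genes and 6 of them above. In the same library the root markers had a median log2 deviation of -0.84, against 0.1 and 0.52 in Air replicates 1 and 2. These deviations were taken from the mean of all 6 libraries and so are not on the same footing. The summed level of the root markers in Air replicate 3, 1862 CPM, lay between the 1664 and 1970 CPM of Air replicates 1 and 2. A sum follows its most abundant genes, so it does not show where the typical root marker stood. Sub replicate 3 was above the other Sub libraries for 9 of these 10 genes, with a median log2 deviation of 0.18. Whether these offsets bear on the differences was not tested.

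Levels between genes were compared per transcript length with the deposited TPM (a length-scaled share of each library's transcripts). Under water AT1G72940 led with a mean of 32.1 TPM, followed by AT5G41740 at 30.3 and AT1G66090 at 24.5, and the ranges over libraries of neighbours in this order overlapped. Next came AT2G20142 at 20.2 and AT1G72920 at 19.8, which overlapped each other. AT1G72910 at 11.3, AT5G41750 at 11.1 and AT4G14370 at 9.35 formed a run of overlapping neighbours, as did AT2G32140 at 8.27 and AT1G57630 at 7.29. In air AT1G72940 stood apart at 8.06 TPM, with AT1G72920 at 1.97 and AT5G41740 at 1.78 overlapping behind it, and AT1G57630 last at 0. AT1G72940 was thus first in both conditions, while AT1G66090 and AT2G20142 had means of 1.02 and 0.429 TPM in air.

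Summed over the 10 genes, the TPM was 13.8, 14.9 and 16.4 in the Air libraries and 162, 175 and 185 in the Sub libraries. The genes were chosen on this difference, so their sums and shares restate that choice. The sums were 1.55%, 1.66% and 1.88% of the summed TPM of 133 TIR genes in Air and 11%, 11.6% and 12.3% in Sub. The other 123 genes together had 872 ± 15.6 TPM in Air and 1323 ± 13.6 in Sub (SD, n = 3 each).

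The cluster holds 11 TIR-annotated loci from AT1G72840 to AT1G72950, and the 8 outside the chosen genes were tested. AT1G72900, the locus that starts the responding stretch, rose from 7.78 ± 1.23 to 57.7 ± 7.66 CPM (SD, n = 3), a log2 fold change of 2.90 ± 0.13 with an adjusted p of 8.06e-10 in edgeR. AT1G72930, named TIR, rose from 9.57 ± 0.713 to 48.2 ± 2.19 CPM, by 2.34 ± 0.08 on the log2 scale. AT1G72950 rose by 2.30 ± 0.42 at a low level, from 0.423 to 2.10 CPM. With the 3 chosen genes, all 6 loci from AT1G72900 to AT1G72950 were higher in Sub. None of the 5 loci before AT1G72900 rose. AT1G72840 and AT1G72890 fell by 0.35 and 0.38 on the log2 scale, with adjusted p of 0.0293 and 0.0442, calls that did not hold in 4 and 7 of 15 alternatives. AT1G72850, AT1G72860 and AT1G72870 did not pass, at -0.48, 0.03 and 0.51. The split at AT1G72900 was made after the values were seen. Over all 11 loci 54.5% were higher and 18.2% lower, against 28.8% and 26.1% of all genes. The higher ones include the 3 chosen genes, which were picked on this contrast. The number that fell in the cluster was 2, and it was 0 without Air replicate 1, Air replicate 2 or Sub replicate 1 and 1 without any other single library.

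**Figure D2:**
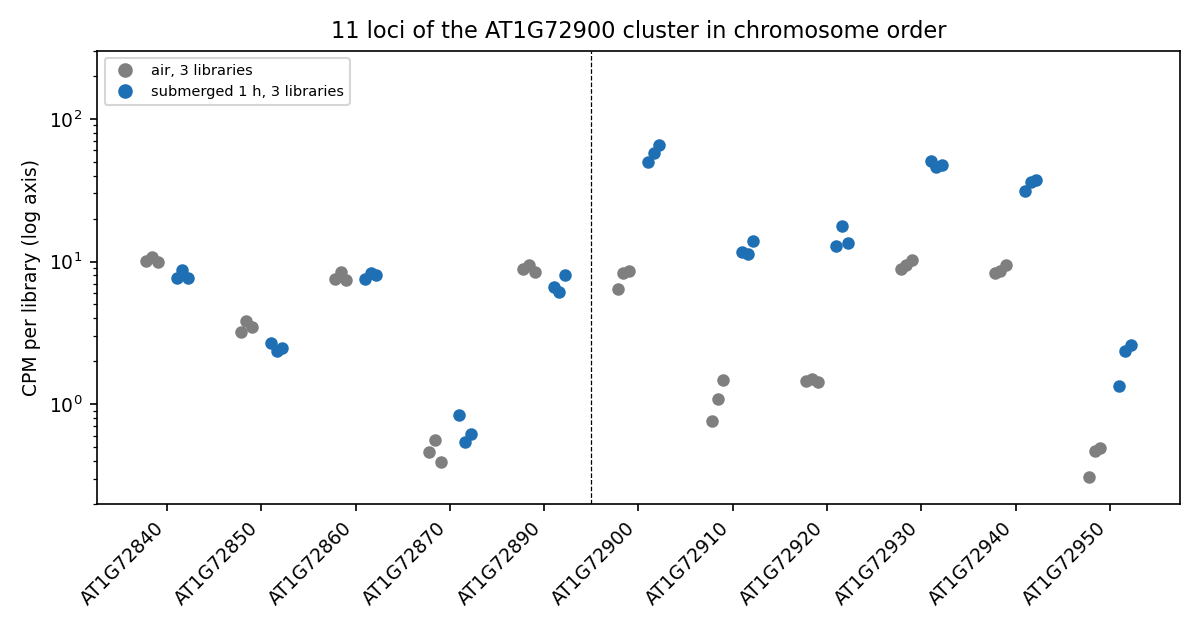
CPM in each library for the 11 loci of the AT1G72900 cluster in chromosome order, on a log axis, with a dashed line before AT1G72900. To its right every locus is higher in all 3 Sub libraries, while to its left the groups lie close together.

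Among all 132 TIR-annotated genes, 95 passed the count filter, 23 had too few counts and 14 had none. Leaving out the chosen genes, 86 were tested, of which 35 rose (40.7%, against 28.8% of all genes) and 13 fell (15.1%, against 26.1%), with a median log2 fold change of 0.25 against 0.005 for all genes. Upper quartile scaling gave 27 risen and 19 fallen, while over all genes it gave 4465 and 6813 in place of 5624 and 5094. The 28.8% and 26.1% are therefore not the background under that scaling. Without Sub replicate 1 the number fallen was 8. Leaving out the cluster loci too, 32 of 78 rose and 11 fell. By annotated class, again without the chosen genes, 27 of 71 tested TNLs, 5 of 11 TIR-NBS genes and 3 of 4 other TIR products rose, and 12, 1 and 0 fell.

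The chosen genes were not simply the 10 with the largest changes, since 7 other TIR genes had log2 fold changes above the 1.99 of AT1G72940. The 5 largest rises outside them were those of AT1G72900, AT1G63860, AT3G04220, AT1G72930 and AT1G72950. AT1G63860 rose from 11.1 to 57.9 CPM, by 2.37 ± 0.10 on the log2 scale, and AT3G04220 rose by 2.37 ± 0.39. CSA1, a TNL that acts with the receptor CHS3, fell from 32.8 ± 3.35 to 16.4 ± 1.04 CPM, by 1.00 ± 0.09 on the log2 scale with an adjusted p of 1.16e-06. AT1G69550 and AT5G36930 fell by 0.76 ± 0.08 and 0.63 ± 0.11. AT2G17050 and AT4G09435 fell by 0.94 ± 0.35 and 0.79 ± 0.30, with adjusted p of 0.0399 and 0.041, and these calls did not hold in 8 and 4 of 14 alternatives.

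**Figure D3:**
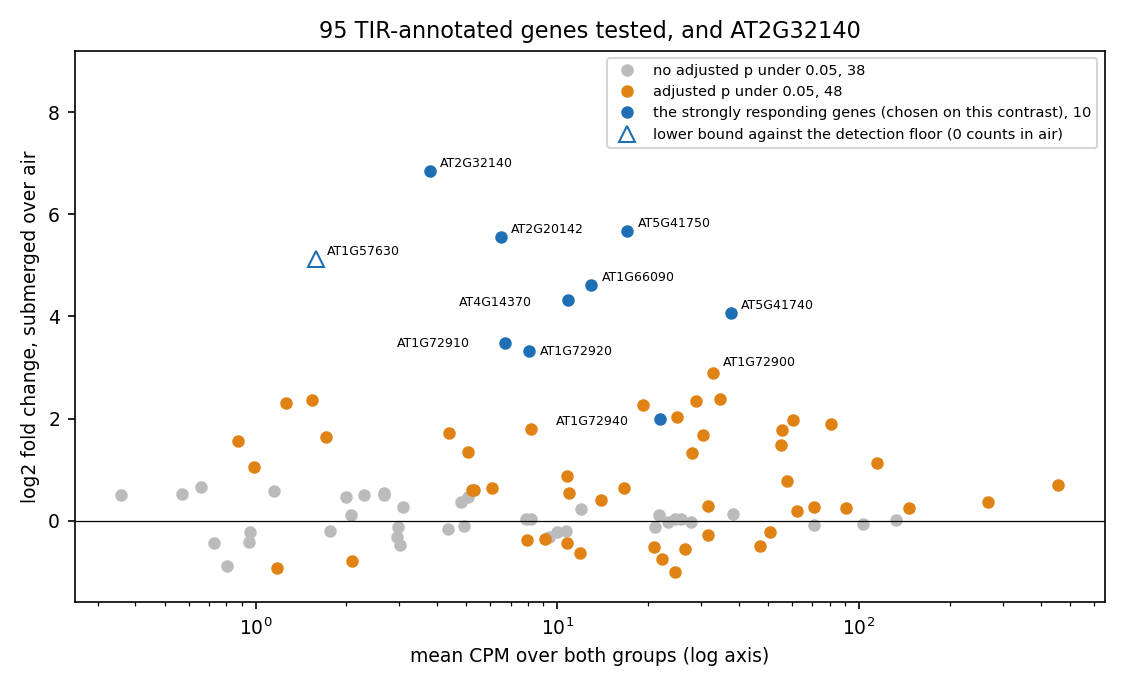
Log2 fold change, submerged over air, against mean CPM on a log axis for the 95 tested TIR-annotated genes and AT2G32140. The 10 chosen genes are in blue, with AT1G57630 at its lower bound, and the others with an adjusted p under 0.05, 35 higher and 13 lower, are in orange. AT1G72900, at 2.90, is the highest of the others.

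The signalling partners of TIR enzymes were examined next. Of 10 genes of the EDS1 node and helper NLRs, 9 were tested, 6 rose and 0 fell (66.7% and 0%, against 28.8% and 26.1% of all genes), at a median of 0.52. SAG101, an EDS1 partner, rose from 9.37 ± 0.182 to 36.0 ± 2.78 CPM, a log2 fold change of 1.94 ± 0.09. The 3 ADR1-family helpers rose, ADR1-L1 by 1.61 ± 0.06, ADR1-L2 by 1.34 ± 0.07 and ADR1 by 1.10 ± 0.11. EDS1 itself rose by 0.52 ± 0.11, from 14.6 to 21.0 CPM, and the NRG1-type helper AT5G66900 by 0.43 ± 0.08. PAD4 had a log2 fold change of 0.22 with an adjusted p of 0.257 in edgeR. EDS1B, a near-identical copy that may share reads with EDS1, had 0.24 with 0.598, and AT5G66910 had -0.04 with 0.83. AT5G66890 had 0 counts in all libraries, which allows up to 0.0887 CPM in Air and 0.0844 in Sub. The number that rose was 6 under every alternative tried.

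Receptor genes known by name moved in both directions. Of 24 tested TNLs, 9 rose and 4 fell (37.5% and 16.7%, against 28.8% and 26.1% of all genes), with a median of 0.08. Upper quartile scaling changed this to 7 and 6 with a median of -0.04, where the median of all genes was -0.12. ADR2, also known as WRR4 for white rust resistance, rose from 24.5 to 96.7 CPM, by 1.98 ± 0.06. AT1G31540 rose by 1.78 ± 0.06, and TAO1 fell by 1.07 ± 0.08. The paired receptors RPS4 and RRS1 had log2 values of -0.02 and 0.12 and did not pass, and SNC1 had 0.02. Of 11 CC-type receptors, which have a coiled-coil in place of the TIR domain, 5 rose and 4 fell (45.5% and 36.4%), with a median of -0.21. RPM1 rose from 11.5 to 49.2 CPM, by 2.10 ± 0.12, RPP13L4 (ZAR1) by 1.38 ± 0.07, and RPP8 fell by 0.82 ± 0.06. Of 4 short TIR genes known by name, RLM3 rose from 347 ± 16 to 566 ± 11.4 CPM and TIR rose as above, while AT1G47370 and AT1G17615 had 0 counts in all libraries.

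Salicylic acid is the hormone that acts downstream of EDS1 and PAD4. Of 7 tested genes of its synthesis, transport and response 4 rose (57.1%, against 28.8% of all genes) and 0 fell, with a median of 0.64, which was 1.27 with a filter of 5 CPM in 3 libraries, where fewer genes were tested. CBP60G, a transcription factor for salicylic acid synthesis genes, rose from 2.30 ± 0.237 to 24.9 ± 2.68 CPM, by 3.43 ± 0.14. Its relative SARD1 rose by 1.73 ± 0.37, the salicylic acid exporter EDS5 (DTX47) by 1.93 ± 0.17, and NPR1, a salicylic acid receptor, by 0.64 ± 0.09. EDS16, the isochorismate synthase, had 0.06 with an adjusted p of 0.623 in edgeR, and PBS3 had -0.19 with 0.762. PR1 had 0 counts in all libraries, PR5 had 0.63 with an adjusted p of 0.08, and PR2 (BGL2), FMO1 and ALD1 were too low to test. Among 9 chaperones and negative regulators of these receptors 3 rose and 1 fell (33.3% and 11.1%, the first near the 28.8% of all genes), with a median of 0.01. Under upper quartile scaling 3 fell and the median became -0.11, where that of all genes was -0.12. NUDT7, a Nudix hydrolase that restrains EDS1 signalling, rose from 14.3 ± 0.626 to 159 ± 15.7 CPM, by 3.47 ± 0.08. CAMTA3, a calmodulin-binding repressor of immune genes, rose by 0.71 ± 0.08 and the co-chaperone gene SGT1A by 0.55 ± 0.06, and HSP90-1 fell by 0.67 ± 0.13.

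**Figure D4:**
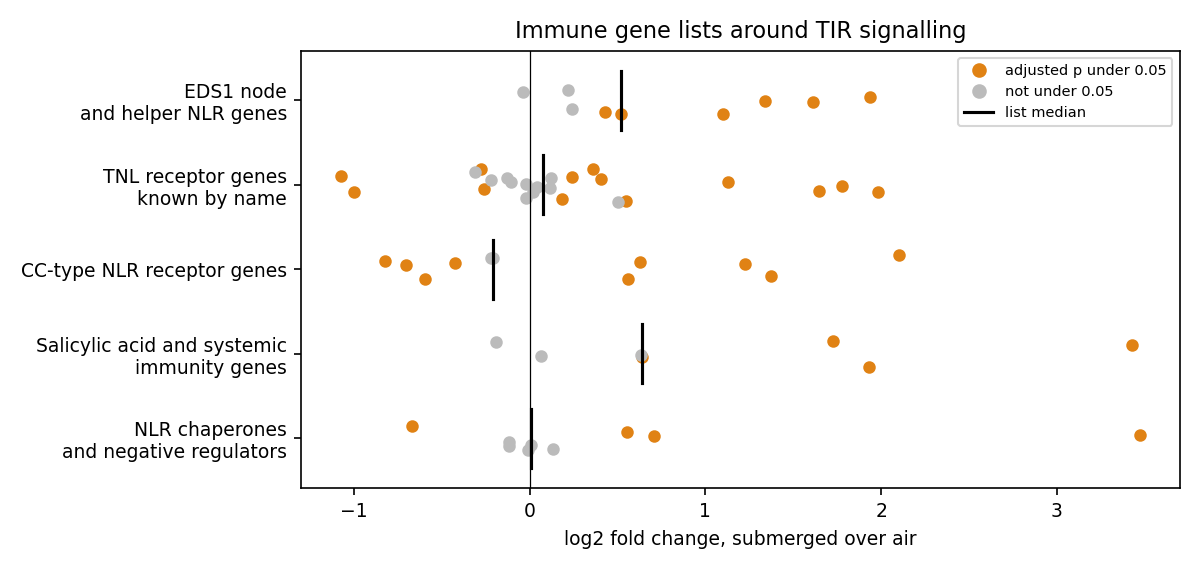
Log2 fold change, submerged over air, of the tested genes in 5 lists around TIR signalling, with orange points for an adjusted p under 0.05 and a bar at each list's median. The EDS1 node has its median at 0.52, and CBP60G at 3.43 and NUDT7 at 3.47 are the largest values shown.

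The nearest other genes beside the chosen loci did not share one direction. Of 12 such neighbours outside the TIR family 7 were tested and 3 rose and 2 fell, with a median of -0.15. These are 42.9% and 28.6%, against 28.8% and 26.1% of all genes, the second near its share. AT1G57620, next to AT1G57630, rose by 0.93 ± 0.09 and AT2G32150, next to AT2G32140, by 0.89 ± 0.08. AT1G66100, next to AT1G66090, fell from 83.4 to 24.5 CPM, by 1.77 ± 0.07.

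The upstream letters were also set against the response. Of all tested genes, the 10 included, 56.3% of the 355 with ACGCGT in the window rose, against 28.4% of the 19063 without it. Among tested TIR-annotated genes outside the 10, it was 5 of 6 with ACGCGT and 30 of 80 without. With TTGACT it was 15 of 31 of these genes and without it 20 of 55. For the W-box core TTGAC the numbers risen in these genes were near each other, at 17 of 43 with it and 18 of 43 without. For TTGACC it was 2 of 7 with and 33 of 79 without. CGCG gave 6 of 12 and 29 of 74, CGCGTT 5 of 7 and 30 of 79, and GCCGCC 2 of 3 and 33 of 83. These shares are descriptions, and no test was made of them.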

How the data were processed

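RNA from whole seedlings was sequenced in 3 Air and 3 Sub libraries. Per the labels' protocols, Trizol was used for RNA and a company made the libraries. The submitters' processing notes name the build TAIR10. Not given in the sources used here are the aligner, the counter, any version and whether strand was used. The deposited table lists whole-number counts, RPKM and TPM per gene and library, per the file headers, and a size-adjusted signal, deposited under the name CPM, which was not used. TPM was used for levels between genes and RPKM was not used.

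The test was edgeR's quasi-likelihood one (version 4.0.16, R 4.3.3) on counts scaled by TMM. Genes were kept by filterByExpr at a count of at least 10 and a total of at least 15, which left 19495 genes, and p-values were adjusted over them by Benjamini-Hochberg with a threshold of 0.05. Every adjusted p is from this test. Fold changes are log2 of Sub over Air with a standard error, and CPM was computed from counts and TMM factors. Tested on simulated data for this comparison, with 50 genes at each fold among 19495, the procedure recovered 60%, 82%, 96% and 96% of genes changed 1.5-, 2-, 4- and 8-fold. The simulation changed 200 genes, while the data had 5624 called higher and 5094 lower. These rates may therefore differ from those in the data.

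Among counts of 1 to 20, 85.8% to 87.4% were even in each library, so low counts were read as read pairs counted as 2, with a floor of 6 counts over a group. Intervals are exact binomial 95% intervals on halved counts. Intervals and the floor cover counting error only.

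The design names biological replicates and says no more on how they were grown, so a p-value here reflects only how these libraries vary, which may be technical. Replicates of a group differed by 4.22 to 8.28 times the sampling variance, so none was the same library deposited again. The counts were taken as deposited for this, so where a read pair counts as 2 these multiples are too large. Alternatives were 3 other scalings, 2 other filters, halved counts, DESeq2 1.42.0, limma 3.58.1 (voom), a replicate block, leaving out each library and a family defined by a protein motif.

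Members and gene lists were chosen with earlier results of these data known. All 10 genes are named, as are the cluster loci, the EDS1 node, the 5 largest rises and falls among called TIR-annotated genes reaching 1 CPM, and up to 3 called genes with the largest changes per other list. Other named genes were chosen after their values were seen. TIR-annotated genes were found by product names. Sequences and proteins were read from RefSeq's TAIR10.1 by locus tag with Biopython 1.88 and BLAST+ 2.17.0, and no coordinates were converted between builds. Motif shares are over 27443 windows of 250 bases.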

Additional observations from a re-analysis of the deposited data

How the results depend on the processing

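The 10 genes had 149 values under the alternatives, all in the direction reported and the lowest 1.87 on the log2 scale. These genes were picked for this difference, so their shared direction restates that choice. The EDS1 node gave 6 risen genes throughout. Upper quartile scaling moved the median of all genes from 0.005 to -0.12, turned the median of named TNLs to -0.04 and that of chaperones and regulators to -0.11, and raised the number of the latter that fell from 1 to 3, and the cause was not tested. Defining the family by a protein motif gave 21 higher and 6 lower of 39 tested (53.8% and 15.4%, against 28.8% and 26.1% of all genes). The totals are smaller because fewer genes carry the motif. The 21 include the chosen genes AT2G20142, AT1G72910, AT1G72920 and AT1G72940, which were picked on this contrast. The other chosen genes lack the motif. The salicylic acid list's median of 0.64 was 1.27 with the 5 CPM filter and 1.20 with halved counts. Of the TIR-annotated genes, 13 fell, and 8 without Sub replicate 1, with or without the 10 genes. The cluster's number fallen was 2, 3 with upper quartile scaling, 1 with DESeq2 and between 0 and 1 when 1 library was left out. Of genes with few counts in air, AT2G20142 and AT5G41750 without Air replicate 3 and AT2G32140 without Air replicate 1 moved by over 1.5 times, and they had 0 to 24 counts per Air library.

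Replicate numbers were not used to pair the samples. Deviations of same-numbered Air and Sub libraries correlated at -0.04, 0.04 and 0.04, so no strong shared offset was seen. These values cannot tell whether same-numbered samples were grown or harvested together. With a replicate block 5470 genes were higher and 4877 lower, and TIR-annotated genes gave 42 higher and 10 lower, or 33 and 10 without the 10 genes. In the cluster the number that fell was 1.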
